A study of Mus musculus with 4 samples.

Results

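The syndecan and glypican genes described here are Sdc1, Sdc2, Sdc3, Sdc4, Gpc1, Gpc3, Gpc4 and Gpc6, which are 8 of the 22180 genes with a probe set on the array that carries exactly 1 gene symbol. They were taken as a list of family members by symbol, and the probe set that stands for a gene was chosen by its level, as the one with the highest mean over the 4 arrays. Those means are therefore given as a description and were not tested. Together the genes have 10 of the 23521 probe sets tested, because Sdc1 and Gpc1 have 2 each.

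The 4 arrays hold tendon RNA from wild-type C57Bl/6 mice, an inbred laboratory strain, aged 4 months: 2 arrays from females and 2 from males. No animal received a treatment. The Achilles and plantaris tendons of a mouse went into 1 extract, so every cell of the tissue contributed RNA, although the labels call the cells tenocytes. The labels do not say whether the 2 arrays of a sex come from separate mice, so an SD or p-value covers only the spread between these arrays, which may be technical. Values are log2 RMA values, in which 1 unit is a change of 2-fold, and differences are female minus male.

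Syndecans and glypicans are the main heparan sulfate proteoglycans of the cell surface. A syndecan spans the membrane with a short cytoplasmic tail, whereas a glypican is held by a lipid anchor, and both carry long sulfated sugar chains that bind growth factors, morphogens and matrix proteins. Enzymes in the Golgi build and sulfate the chains, and proteases or lipases can release the proteoglycans from the cell. In fibroblasts, syndecans also act with integrins where the cell holds on to its matrix.

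As a check of the tissue, 10 of 10 tenocyte markers gave signal above the array medians, with a mean level of 5.52 and 6.22 in females 1 and 2 and 6.28 and 5.86 in males 1 and 2. Tnmd, which encodes the membrane protein tenomodulin of mature tendon, was at 4.42 and 4.39 in females and 5.06 and 4.60 in males. Skeletal muscle markers were far higher in signal, with means of 9.99 and 9.11 in females and 9.82 and 9.89 in males, so muscle RNA was present on all 4 arrays. The array medians over all rows, used here as a rough mark of background, lay between 2.27 and 2.30. In such bulk samples, fewer cells of a type and less RNA per cell cannot be told apart.

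The widest difference between the sexes in the family was in Sdc1, and the next widest, in the opposite direction, was in Sdc3. Neither passed the threshold. The RefSeq start regions of these 2 genes are shown because their differences were the widest of the family. Each window runs from 250 bases before to 50 bases after the start of the gene on assembly GRCm38.p6, and Sdc1 and Sdc3 both lie on the plus strand. Sdc1 is at chr12:8771146-8771445 and Sdc3 at chr4:130792287-130792586. Capitals mark matches, on either strand, to GGGCGG (the GC box), TATAA and CCAAT.
Sdc1: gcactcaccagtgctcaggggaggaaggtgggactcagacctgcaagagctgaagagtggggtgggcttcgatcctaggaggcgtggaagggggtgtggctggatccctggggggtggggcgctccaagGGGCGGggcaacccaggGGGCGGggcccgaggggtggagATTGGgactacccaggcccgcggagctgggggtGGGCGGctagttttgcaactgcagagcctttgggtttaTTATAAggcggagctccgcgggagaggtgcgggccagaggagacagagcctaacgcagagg
Sdc3: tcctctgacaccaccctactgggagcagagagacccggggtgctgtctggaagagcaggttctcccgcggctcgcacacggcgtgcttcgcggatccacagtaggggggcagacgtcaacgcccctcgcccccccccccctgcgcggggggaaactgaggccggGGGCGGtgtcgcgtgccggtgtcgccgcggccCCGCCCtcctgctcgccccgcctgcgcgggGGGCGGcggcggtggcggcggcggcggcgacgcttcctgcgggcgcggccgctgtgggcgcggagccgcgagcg
The Sdc1 window holds 3 GC boxes, 1 CCAAT match on the minus strand and 2 TATAA matches on opposite strands that overlap each other. The Sdc3 window holds 3 GC boxes and no match to the other 2 motifs. Of 32851 RefSeq windows of this length, 35.7% hold a GC box, 24.9% TATAA and 37.4% CCAAT. G and C make up 66.3% of the Sdc1 window and 77.7% of the Sdc3 window, where the median of all windows is 52.7%. RefSeq windows were matched for 5 of the 8 genes, the others being Sdc4, Gpc3 and Gpc4. The Sdc4 window holds 4 GC boxes and 1 TATAA match, Gpc3 4 GC boxes and 1 CCAAT match, and Gpc4 1 GC box. These matches describe letters in the windows, and the arrays measured nothing about binding there.

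Syndecans, the membrane-spanning members, gave values above the array medians on every array. Sdc1 is best known from epithelia and plasma cells. Its first probe set (17547680) was at 2.99 and 3.68 in females 1 and 2 and at 5.06 and 4.54 in males 1 and 2. Both females lay below both males. The means were 3.34 ± 0.49 in females and 4.80 ± 0.37 in males (SD, n = 2 each). Limma gave a difference of -1.47 (SE 0.32, 95% interval -2.33 to -0.60), which is a female level of 0.362 times the male level (0.198 to 0.661). The unadjusted p was 0.00847 and the Benjamini-Hochberg adjusted p over all probe sets was 0.969 in limma, so the difference was not called.

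The second Sdc1 probe set (17273948) did not show this difference. It was at 2.90 and 2.87 in females and 3.04 and 2.69 in males, so the female values lay between the male ones. The difference was 0.02 (SE 0.18, 95% interval -0.47 to 0.51; limma adjusted p = 0.999). The first probe set exceeded the second by 0.08 and 0.82 in females and by 2.02 and 1.85 in males. This gap between the probe sets was tested after its values were seen, with limma over the 1082 genes that have a second probe set. It differed between the sexes by -1.49 (SE 0.32, 95% interval -2.45 to -0.53), with an unadjusted p of 0.0146 and a limma adjusted p of 0.654. Of the 1082 genes 0 were called (0%), and 6.65% had an unadjusted p under 0.05. With 2 arrays against 2 an exact permutation test cannot go below a two-sided p of 0.333. With the probe sets averaged, the Sdc1 difference was -0.72 (limma adjusted p = 0.969).

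Because Sdc1 marks plasma cells and epithelia, markers of those cells were read on the same arrays. Of 10 measured plasma and B cell markers, 8 did not exceed the array medians in the mean of either sex, the plasma cell genes Jchain, Mzb1, Derl3, Tnfrsf17 and Prdm1 among them. The markers that did were Irf4 and Pou2af1. Irf4 was at 2.23 and 2.79 in females and 2.11 and 2.49 in males. Pou2af1 was at 2.10 and 2.21 in females and 2.36 and 2.44 in males. The mean level of all 10 plasma and B cell markers was 1.96 and 2.13 in females and 2.04 and 2.07 in males. Keratinocyte markers had a mean level of 2.31 and 2.27 in females and 2.51 and 2.40 in males, so both females were lower here too. Of the 10 keratinocyte markers measured, Krt14, Krt15, Dsp and Dsg1a did not exceed the array medians in either sex. Krt1 was at 2.69 and 2.67 in females and 3.16 and 3.17 in males. Both females also lay below both males in Krt10, Krt17 and Dsg1a, but not in Krt14, Krt15, Dsp, Trp63, Perp or Lor. Lor was at 2.63 and 2.22 in females and 2.17 and 2.33 in males. The part of keratinocyte RNA in the Sdc1 difference was not tested.

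Sdc3 is best known from nerve tissue and from muscle stem cells. It was at 4.36 and 5.27 in females 1 and 2 and at 3.26 and 4.39 in males 1 and 2. Female 2 was highest and male 1 lowest, while female 1 and male 2 were almost level, so the sexes overlapped. The difference was 0.99 (SE 0.51, 95% interval -0.38 to 2.35), or 1.98 times the male level with an interval of 0.769 to 5.10 times. Limma gave an unadjusted p of 0.119 and an adjusted p of 0.969. In each array, Sdc3 minus Sdc1 was 1.37 and 1.59 in females and -1.80 and -0.15 in males. This pair was chosen after its values were seen, and its values are a description.

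Some marker lists of other cells had the same highest and lowest array as Sdc3. The mean level of 8 measured adipocyte markers was 5.70 and 5.97 in females and 4.61 and 5.32 in males, lowest in male 1 and highest in female 2 like Sdc3. Endothelial markers (9 of 9 measured) had means of 4.22 and 4.57 in females and 3.59 and 4.42 in males, again lowest in male 1 and highest in female 2. Macrophage markers (9 of 9 measured) were at 4.25 and 5.23 in females and 4.06 and 4.19 in males, with the same lowest and highest array. Single markers departed from these list means. Of the adipocyte markers, Plin1 was lowest in female 1, and Plin4 and Cidec were highest there. The endothelial markers Cdh5, Kdr, Tek and Egfl7 were highest in male 2, and Esam was lowest in female 1. Among macrophage markers, Adgre1, Csf1r and Mrc1 were lowest in female 1, and Cd163 was lowest in male 2 and highest in female 1. Schwann cell markers (6 of 9 measured) were at 3.66 and 4.01 in females and 3.51 and 3.42 in males. Satellite cell and myogenic markers were at 3.00 and 2.67 in females and 2.81 and 2.82 in males, with the lowest mean in the array where Sdc3 was highest. Myod1, Myog, Cdh15 and Calcr were lowest in that array, whereas Pax7, Myf5 and Chrna1 were not. Pax7 was at 2.99 and 3.08 in females and 3.08 and 2.70 in males. Myf5 and Calcr did not exceed the array medians in the mean of either sex. The part of these cells in the Sdc3 values was not tested.

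Sdc2, the syndecan typical of fibroblasts and other mesenchymal cells, was at 5.68 and 6.68 in females and 6.46 and 5.30 in males. Each sex had 1 high and 1 low array. The means were 6.18 ± 0.71 in females and 5.88 ± 0.82 in males (SD, n = 2 each), a difference of 0.30 (SE 0.53; limma adjusted p = 0.983). Its 95% interval, 0.457 to 3.31 times the male level, is wide. Female 2 and male 1, the arrays with more Sdc2 signal, also had the higher tenocyte marker means. Not every marker followed: Tnmd and Tppp3 were lower in female 2 than in female 1, and Thbs4 was no higher in male 1. Chondrocyte marker means were also higher in female 2 (2.56) and male 1 (2.49) than in female 1 (2.30) and male 2 (2.34). The part of these cells in the Sdc2 values was not tested.

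Sdc4, a broadly expressed syndecan found at focal adhesions, varied least over the arrays among the 4 probe sets that stand for the syndecans. It was at 4.42 and 4.46 in females and 4.65 and 4.23 in males, so the females lay between the males. The difference was -0.0027 (SE 0.20; limma adjusted p = 1), and its 95% interval ran from 0.690 to 1.44 times the male level. A difference within those bounds is not excluded by these 4 arrays.

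**Figure D1:**
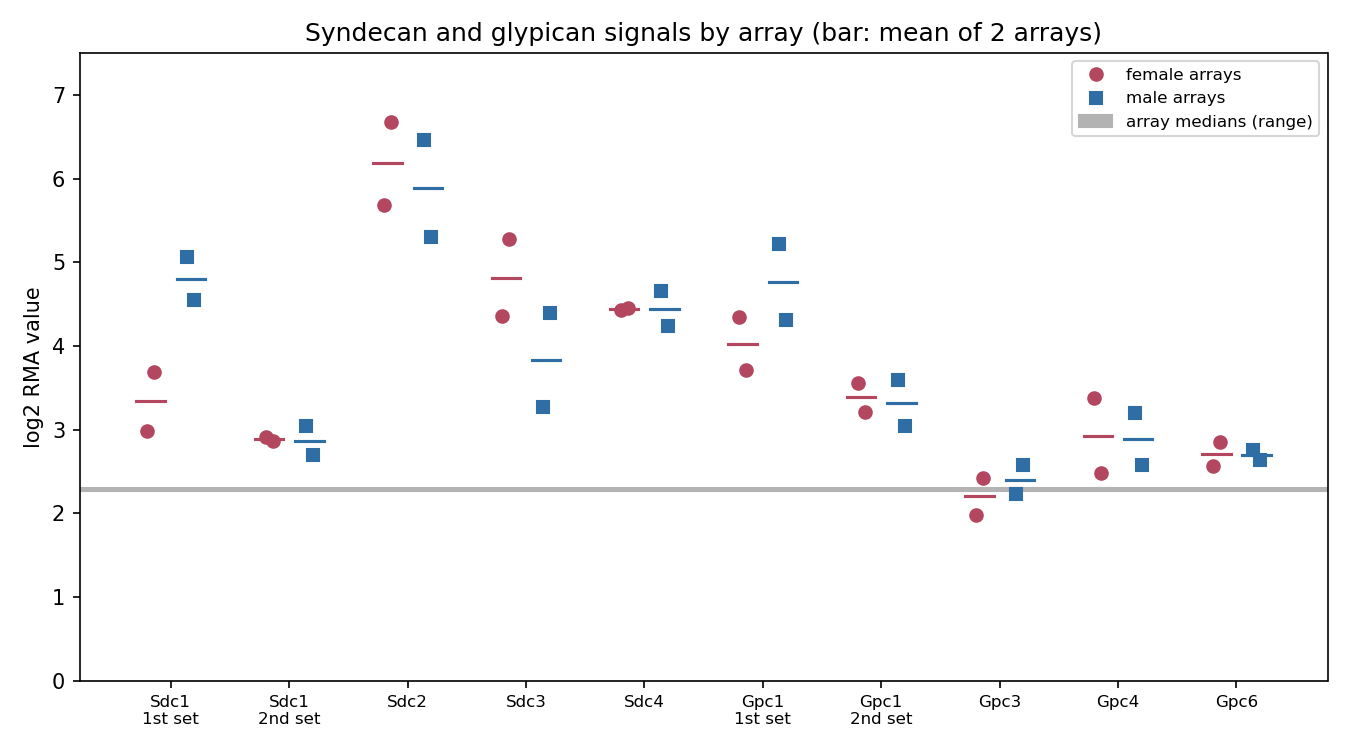
Log2 RMA value (vertical axis) of each syndecan and glypican probe set on every array, with circles for the 2 female arrays, squares for the 2 male arrays, bars for their means and a grey band for the range of the array medians. The first Sdc1 probe set is the only one shown in which no female array overlaps a male array, and the Gpc3 values lie on both sides of the grey band.

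Glypicans, the lipid-anchored members, lay closer to the array medians apart from Gpc1. Gpc1 is widely expressed and was at 4.34 and 3.71 in females and 5.21 and 4.31 in males on its first probe set (17215820). Male 1 was highest and female 2 lowest, and female 1 slightly exceeded male 2, so the sexes overlapped. The difference was -0.74 (SE 0.40, 95% interval -1.80 to 0.32), or 0.599 times the male level, with a limma adjusted p of 0.969. As with Sdc1, the second probe set (17548970) differed less, with 3.55 and 3.22 in females and 3.60 and 3.04 in males. Its difference was 0.07 (SE 0.26; limma adjusted p = 0.993). The first Gpc1 probe set exceeded the second by 0.79 and 0.49 in females and by 1.62 and 1.27 in males, a difference of -0.81 (SE 0.22; limma adjusted p = 0.654).

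Gpc3 and Gpc4 are neighbours on the X chromosome of the mouse. Gpc3 restrains growth, and its loss in humans causes an overgrowth syndrome. It was at 1.98 and 2.42 in females and 2.23 and 2.57 in males, above its array's median on 1 array of each sex. At this signal no difference is read from the measured -0.20 (SE 0.23; limma adjusted p = 0.972). Gpc4 was at 3.37 and 2.47 in females and 3.19 and 2.58 in males. It varied within a sex (SD 0.64 in females and 0.43 in males) and little between the sexes, with a difference of 0.04 (SE 0.39, 95% interval -1.01 to 1.09; limma adjusted p = 0.999).

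Gpc6, whose loss in humans shortens the limbs, was at 2.56 and 2.85 in females and 2.75 and 2.63 in males. Each female value lay outside the span of the males, 1 below it and 1 above it. The difference was 0.01 (SE 0.17; limma adjusted p = 0.999), with a 95% interval from 0.730 to 1.40 times the male level. Signal this close to background can hide a difference. Of the remaining glypicans, Gpc2 was at 2.57 and 2.22 in females and 2.54 and 2.12 in males, and Gpc5 was at 1.67 and 1.62 in females and 1.71 and 1.65 in males, below every array median.

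Ordered by array signal, Sdc2 came first on every array with a mean of 6.03, and Gpc3 came last on every array with a mean of 2.30. Between them, Sdc4 (4.44), Gpc1 (4.39), Sdc3 (4.32) and Sdc1 (4.07) had 4-array means closer to each other than the range over arrays of Gpc1 (1.51), Sdc3 (2.01) or Sdc1 (2.07), so their order is not settled. Sdc1 ranked 6 and 5 of the 8 in females 1 and 2, against 3 and 2 in males 1 and 2. Gpc4 (2.90) and Gpc6 (2.70) changed places between arrays as well. Probe sets bind their targets with different strength, so this order describes signal and does not rank the genes by amount of RNA.

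Limma called 0 of the 8 genes at an adjusted p under 0.05, as it did 0 of all 23521 probe sets (0%). At an unadjusted p under 0.05 there was 1 of 8 genes, Sdc1, beside 4.49% of all probe sets tested. The arrays of the sexes did not overlap for 1 of the 8 genes (12.5%), again Sdc1, beside 33.3% of all probe sets. A difference over 1 log2 unit in size was also seen in Sdc1 alone of the 8, beside 1.71% of all probe sets. Females were higher in 4 genes and lower in 4, beside 48.8% of all probe sets higher and 51.2% lower, and the median difference was 0.01, beside -0.01 over all probe sets. The 8 genes did vary between arrays: 4 of them, Sdc1, Sdc3, Gpc1 and Sdc2, ranged over more than 1 log2 unit, where 13.1% of all probe sets tested did. That comparison takes no account of level, since dim probe sets range less and each gene was represented by its brightest probe set.

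**Figure D2:**
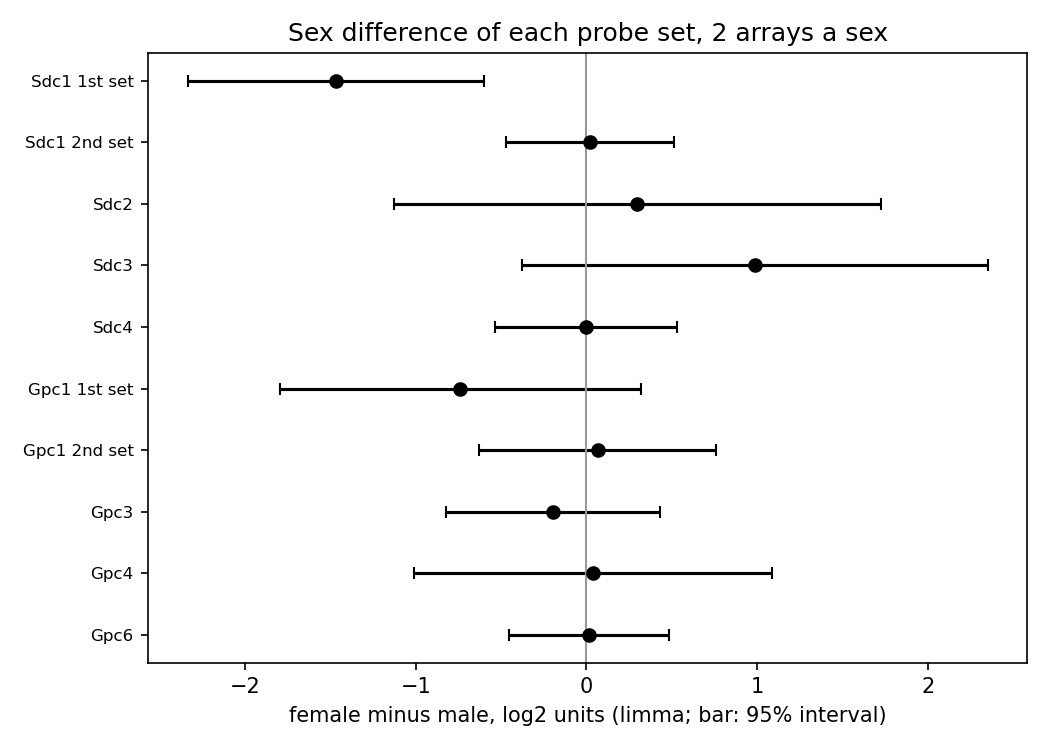
Female minus male difference (horizontal axis, log2 units) of each probe set of the 8 genes, with limma's 95% interval as a bar. The interval of the first Sdc1 probe set, -2.33 to -0.60, is the only one that does not reach 0, and the second probe set of the same gene is centred near 0.

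For the 4 genes with a range over 1 log2 unit, the genes with the most similar pattern were looked up among 11270 genes whose mean exceeded the highest array median. Likeness was the root mean square distance between the deviations from each gene's own mean on the 4 arrays. With only 4 arrays and so many genes, close matches arise for almost any pattern, and nothing about shared function or control is read from them. The nearest to Sdc1 were Socs3 (distance 0.070 log2 units), an inhibitor of cytokine signalling, then Trappc3 (0.12), a vesicle trafficking gene, and Egr1 (0.14), an immediate early transcription factor gene. Socs3 was at 2.91 and 3.57 in females and 5.12 and 4.56 in males. Egr1, which is switched on quickly by mechanical and other stimuli, was at 3.47 and 4.34 in females and 5.90 and 5.06 in males.

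The nearest to Sdc3 were Adipoq (0.055), the adiponectin gene of fat cells, Zmiz1 (0.078) and Sfrp4 (0.088), a secreted Wnt antagonist. Adipoq was at 5.86 and 6.67 in females and 4.62 and 5.78 in males. The nearest to Sdc2 were Plod2 (0.054), a lysyl hydroxylase of collagen, Krtdap (0.062) and Rxrb (0.093), a nuclear receptor gene. Plod2 was at 4.20 and 5.31 in females and 5.10 and 3.84 in males. The nearest to Gpc1 were Ppm1j (0.032), a phosphatase gene, Nrm (0.050) and Chchd3 (0.064), a mitochondrial inner membrane gene. Chchd3 was at 6.30 and 5.59 in females and 6.99 and 6.17 in males, lowest in female 2 like Gpc1. The mean of the skeletal muscle markers was also lowest in female 2, but it was highest in the other female array. Gpc1 and Chchd3 were highest in a male array. Satellite cell and myogenic, keratinocyte, and pericyte and smooth muscle marker means were lowest in female 2 as well. The keratinocyte mean was highest in male 1 (2.51), as was Gpc1. The satellite cell and myogenic mean was highest in female 1 (3.00), and the pericyte and smooth muscle mean in male 2 (5.59). The part of these cells in the Gpc1 values was not tested.

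**Figure D3:**
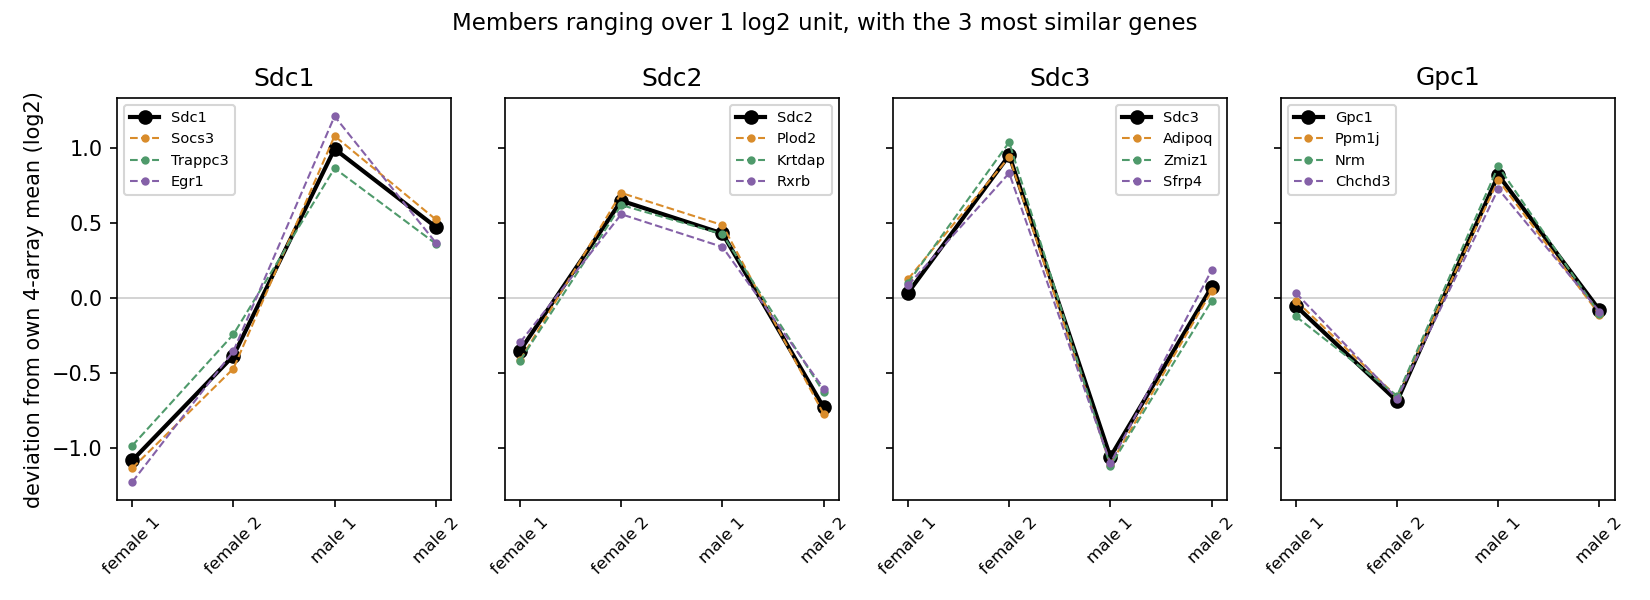
Deviation from the gene's own 4-array mean (vertical axis, log2 units) on each array for Sdc1, Sdc2, Sdc3 and Gpc1 (black) and the 3 genes most like each (coloured). Lines only join the points of a gene. Sdc1 is low on both female arrays, Sdc3 is lowest on male 1, Sdc2 is low on female 1 and male 2, and Gpc1 is lowest on female 2.

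The genes that make, modify, release and use heparan sulfate proteoglycans were then read in 10 lists by role. Of 90 listed genes 88 had a probe set with 1 symbol, and 67 of these had a mean above the highest array median in at least 1 sex. Limma called 0 of the 88 in either direction. At an unadjusted p under 0.05 there were 6 higher in females and 0 lower, or 6.82% of the 88, beside 2.64% of all probe sets tested that were higher and 1.85% that were lower. The arrays of the sexes did not overlap for 27 of the 88 (30.7%), close to the 33.3% over all probe sets. The median difference was 0.03, with 52 genes higher in females and 36 lower.

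Among enzymes that build the chain, Ext1, a subunit of the heparan sulfate polymerase, was at 5.03 and 5.34 in females and 3.94 and 4.60 in males. Both females were higher, with a difference of 0.92 (SE 0.28; limma adjusted p = 0.969). Extl2 differed by 0.33 (SE 0.22), and 4 of the 5 polymerase genes were higher in females, beside 48.8% of all probe sets. Ext2 differed by 0.15 (SE 0.15), Extl3 by 0.08 (SE 0.16) and Extl1 by -0.09 (SE 0.27). Of the enzymes of the linkage sugars, B3gat3 differed by 0.65 (SE 0.30) and Xylt1, which starts the chain, by -0.47 (SE 0.59), with male 1 at 5.50 and the other arrays between 3.83 and 4.31.

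Of the enzymes that modify or trim the chain, Sulf2, which removes sulfate groups outside the cell, was at 5.47 and 5.67 in females and 4.67 and 5.04 in males. Both females were higher, and the difference was 0.71 (SE 0.20; limma adjusted p = 0.969). Notum, which releases glypicans by cutting their lipid anchor, differed by 0.15 (SE 0.21), and its second probe set by 0.01 (SE 0.17). Ndst2, an N-sulfating enzyme, was at 2.53 and 2.64 in females and 2.00 and 2.07 in males. Its male mean lay below the array medians. Glce, the epimerase, differed by 0.25 (SE 0.32), and 7 of the 14 measured modifying enzymes did not exceed the array medians in either sex.

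Among genes of syndecan shedding, the protease gene Adam17 differed by 0.53 (SE 0.35) and Timp3, an inhibitor of such proteases, by 0.57 (SE 0.40). Timp3 was at 9.04 in female 2 and between 7.83 and 8.01 on the other arrays. Of the partners of the syndecan tail, Gipc1 was at 4.70 and 4.74 in females and 4.09 and 4.26 in males, a difference of 0.55 (SE 0.15; limma adjusted p = 0.969). Prkca, the kinase bound and activated through syndecan-4, was at 3.99 and 3.54 in females and 4.70 and 4.14 in males, a difference of -0.66 (SE 0.28). The sexes did not overlap in either of these 2 genes, and neither was called.

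Of other proteoglycans that can carry such chains or bind the same ligands, Srgn, the proteoglycan of blood cell granules, differed by 0.55 (SE 0.33) and Cd44, the hyaluronan receptor, by -0.18 (SE 0.25). Srgn was at 3.95 in female 2 and between 2.89 and 3.08 on the other arrays, and macrophage markers were also highest in female 2, at a mean of 5.23 there and between 4.06 and 4.25 on the others. The part of macrophages in the Srgn value was not tested.

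Among ligands, Bmp4 was at 3.53 and 4.09 in females and 3.11 and 2.90 in males, a difference of 0.80 (SE 0.25; limma adjusted p = 0.969). Tfpi, an inhibitor of coagulation that binds the cell surface through heparan sulfate, differed by -0.53 (SE 0.26) from a female mean of 1.81, below every array median. Among receptors, the hedgehog pathway genes Ptch1 and Smo had the widest differences. Hhip, a further hedgehog pathway gene of that list, differed by -0.05 (SE 0.14) and did not exceed the array medians in either sex. Ptch1, which is also a transcriptional target of hedgehog signalling, was at 3.68 and 4.57 in females and 2.54 and 2.94 in males. Both females were higher, by 1.39 (SE 0.36; limma adjusted p = 0.969). Smo was at 4.12 and 3.47 in females and 2.73 and 3.51 in males, with overlap between the sexes and a difference of 0.67 (SE 0.37).

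**Figure D4:**
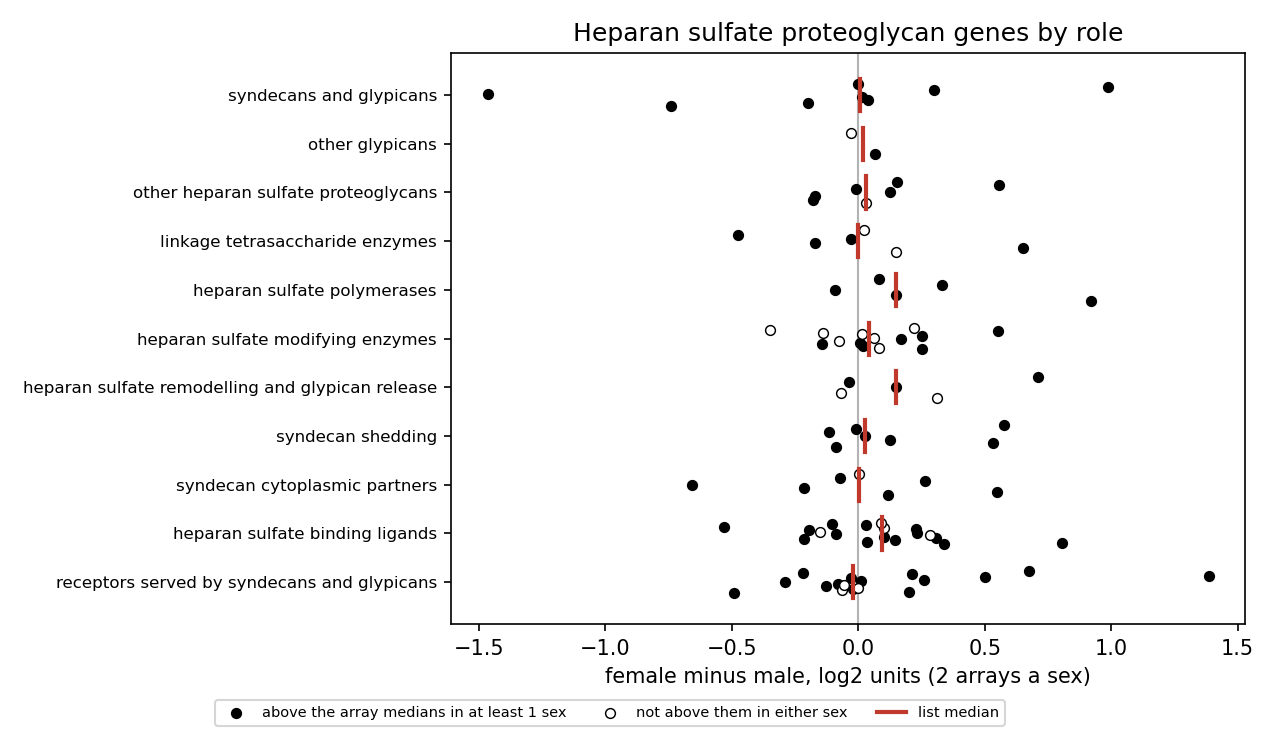
Female minus male difference (horizontal axis, log2 units) of each gene by role, with filled points for genes above the array medians in at least 1 sex, open points for the others and red lines for list medians. The list medians lie between -0.02 and 0.15, while single genes spread from -1.47 for Sdc1 to 1.39 for Ptch1.

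**Figure D5:**
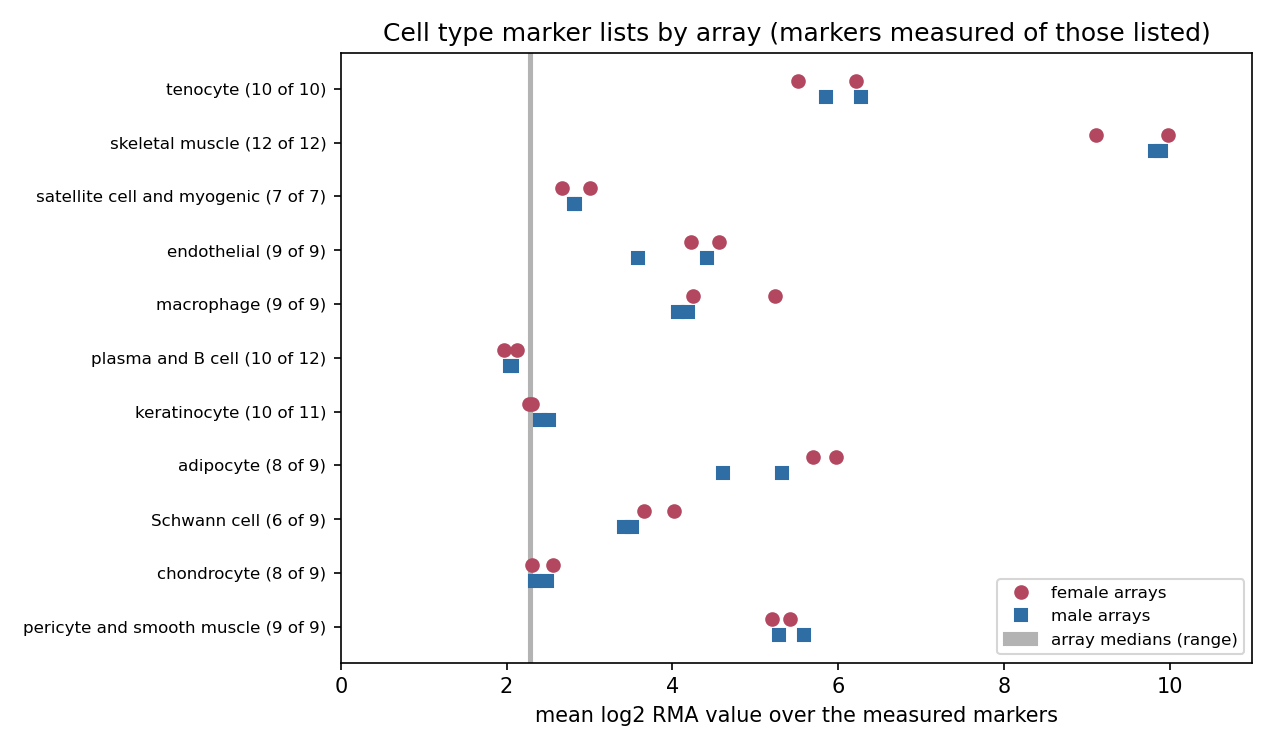
Mean log2 RMA value of the measured markers of each cell type (horizontal axis) on every array, with circles for female arrays, squares for male arrays and a grey band for the range of the array medians. Skeletal muscle markers lie between 9.11 and 9.99 on every array, and plasma and B cell markers lie below the band on all 4.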

How the data were processed

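The deposited values were log2 expression values, 1 column per array, made by the authors with oligo and RMA, per the submitters' processing notes. Their versions, the summarisation level and the annotation build are not given in the sources used here. Per the labels' protocols, cDNA was amplified from 12.5 ng of total RNA, and the biotinylated product was hybridised to a Mouse Gene ST 2.1 strip. The log2 scale was taken from RMA and the values' range. No further normalization or filter was applied.

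Of 41345 rows, 23521 carried exactly 1 gene symbol in GEO's platform annotation, 1814 several and 16010 none. By Entrez ID 23328 matched RefSeq (GRCm38.p6), which changed 0 symbols. Each of the 23521 probe sets was fitted with sex as the only term in limma 3.58.1 (R 4.3.3; lmFit and eBayes, default prior). Benjamini-Hochberg adjustment ran over all of them, with a threshold of 0.05. Precision is limited by the number of arrays, with a median SE of 0.19. The fit was tested on simulated data. Figures used matplotlib 3.10.9 in Python 3.11.15.

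The genes and lists were chosen with earlier results of these data known. Named were all 8 genes with every probe set, Gpc2 and Gpc5, and the 3 genes most alike to each of the 8 that ranged over 1 log2 unit. From each list the called genes were named, or otherwise the 2 of widest difference among genes above the highest array median in at least 1 sex; further genes are examples chosen after their values were seen. Predicted genes, microRNAs, snoRNAs and olfactory or vomeronasal receptors were left out of the likeness search. Alternatives were a test of all rows, removal of dim probe sets, a robust prior with trend, repeated quantile normalization, median centring, array weights, a block for the replicate number, other uses of a gene's probe sets, and omission of each array in turn.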

Additional observations from a re-analysis of the deposited data

How the results depend on the processing

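Limma called 0 probe sets under each of the 13 alternatives run, and 0 of the syndecan and glypican genes that each covered. All 8 genes were covered except in 2 settings. Removal of dim probe sets left 7 genes, and the second probe set, read from the fit as reported, covered 2. An unadjusted p under 0.05 was found for 1056 probe sets as reported, and for 1397, 1062, 836 and 1511 without female 1, female 2, male 1 and male 2. The other settings over the same 23521 probe sets gave between 981 (replicate block) and 1103 (robust prior with trend). The median difference over the 8 genes ran from -0.24 to 0.14 when 1 array was left out; a lone array of a sex is then assumed to vary like the other sex. Without each array in turn Sdc1 stayed negative (-1.81 to -1.12), as did Gpc1 (-1.19 to -0.29), and Sdc3 stayed positive (0.42 to 1.55). For Sdc1 the sign was fixed in advance, because both females lay below both males. The gap between the first and second probe set, an analysis chosen after seeing the data, differed between the sexes by -1.85 to -1.12 for Sdc1 and by -0.98 to -0.63 for Gpc1 when 1 array was left out. The sign of these differences could not change either, because in both genes the female gaps lay below the male gaps. Of the differences of single genes, 12 of 97 turned sign, none of them called. With the second probe set, Sdc1 was at 0.020 and Gpc1 at 0.066; the other 6 genes have 1 probe set. Sdc4 was at 0.024 after centring on array medians. Leaving out 1 array also turned the sign of Sdc4 (-0.21 to 0.21), Gpc3 (-0.42 to 0.020), Gpc4 (-0.41 to 0.49), Sdc2 (-0.28 to 0.88) and Gpc6 (-0.13 to 0.16). The cause was not tested. Gpc3 did not pass the filter on dim probe sets and has no value there. The titles number the arrays 1 and 2 in each sex without saying that a number marks a shared animal or batch, and the deviations of female 1 and male 1 correlated at -0.06 across probe sets. With the replicate block, the Sdc1 difference was -1.47 with a limma adjusted p of 0.993, and the count of called probe sets stayed 0. In that limma fit 3 of the 8 genes (Sdc1, Sdc3 and Gpc1) had an unadjusted p under 0.05, beside 981 of all 23521 probe sets. Signal near the array medians limits what can be read for Gpc3 and Gpc6.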
